A study of Homo sapiens with 22 samples.

Results

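The genes described here encode the subunits of the mitochondrial respiratory chain and ATP synthase that are carried in the nuclear genome. They were taken by symbol from the tables of MOLM-13 and NB4 RNA sequencing (the NDUFA, NDUFB, NDUFC, NDUFS and NDUFV genes with a number, SDHA to SDHD, and symbols that begin with UQCR, COX4 to COX8, ATP5F, ATP5M or ATP5P), which gave 88 of 20411 genes. Of these, 37 belong to complex I, 4 to complex II, 9 to complex III, 19 to complex IV and 19 to complex V. NDUFA4 and its paralogue NDUFA4L2, named after complex I, were counted in complex IV, where the NDUFA4 protein is bound. A gene was tested in a cell line when its mean RPKM (reads per kilobase of exon, scaled to the reads of the library on genes) over the 6 libraries of that line was at least 1, which kept 78 subunit genes of 9710 genes tested in MOLM-13 and 76 of 9853 in NB4.

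MOLM-13 and NB4 are established human acute myeloid leukemia lines, of which NB4 is a promyelocytic line. Both were exposed to 2 µM FP54 or to the DMSO vehicle for 48 hours, with 3 RNA sequencing libraries for each treatment and line. FP54 is a PROTAC, a molecule with 2 binding ends, that joins FTO, an eraser of N6-methyladenosine (m6A) from RNA, to the VHL ubiquitin ligase so that FTO protein is degraded. The question for these genes was whether the mRNA of each complex changed with FP54, and whether it did so alike in both lines. The labels do not say that libraries of a group came from separate cultures, so p-values measure the spread between these libraries, which may be technical, and each line is 1 culture line and not a sample of patients.

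The respiratory chain passes electrons from NADH (at complex I) and from succinate (at complex II) through ubiquinone, complex III and cytochrome c to oxygen at complex IV. Complexes I, III and IV pump protons across the inner mitochondrial membrane, and complex V, the ATP synthase, uses their return to make ATP. All except complex II combine nuclear subunits, made in the cytosol and imported, with subunits translated inside mitochondria from mitochondrial DNA. Promoters of the nuclear subunit genes are known for binding sites of NRF1, of ETS factors such as GABP, and of YY1.

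Letters of these 3 kinds of site were searched for in RefSeq promoter windows (GRCh38.p14, 250 bases before to 50 after the start), which were given for 69 of the 88 genes and for 15270 genes of the tables. Each motif was searched on both strands, and matches may overlap. A gene can have more than 1 window, and the counts are of genes with a match in at least 1 of them. The NRF1-type motif, whose letters stand in capitals in the matches below, was present for 17 subunit genes (24.6%), against 9.75% of all genes with a window. CCGGAAG (ETS-type) was present in 21 (30.4%) against 16.8%, and AANATGGCG (YY1-type) in 17 (24.6%) against 5.72%. At least 1 of the 3 was present for 43 subunit genes (62.3%) and for 27.9% of all genes. The E-box CACGTG was present for 10.1% of subunit genes and 10.9% of all genes. TGATGCAA (ATF4-type) was present for 0 of 69 subunit genes and for 0.917% of all, which says only that these letters are not in these windows. No match was found for NDUFS5, NDUFC1 or ATP5MC1, which had the largest decreases in NB4, and whether each had a window is not given. The matches below are examples from genes named in the results that follow. They are 30 bases each on the strand of the gene, with the motif or its reverse complement in capitals.
NDUFA8, NRF1-type, chr9:122159764-122159793, minus strand: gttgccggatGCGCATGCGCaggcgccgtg
ATP5F1C, NRF1-type, chr10:7788145-7788174, plus strand: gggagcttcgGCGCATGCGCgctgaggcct
UQCRFS1, NRF1-type, chr19:29213163-29213192, minus strand: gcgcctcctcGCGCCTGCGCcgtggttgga
COX6B1, ETS-type, chr19:35648300-35648329, plus strand: acctctctcagCTTCCGGctggtagtagtt
UQCRQ, ETS-type, chr5:132866577-132866606, plus strand: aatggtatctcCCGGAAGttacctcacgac
ATP5PD, ETS-type, chr17:75047052-75047081, minus strand: ccgggaagataCTTCCGGaaccagccctca
SDHB, ETS-type, chr1:17054142-17054171, minus strand: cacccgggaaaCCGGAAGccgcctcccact
SDHB, YY1-type, chr1:17054003-17054032, minus strand: gtcaggagccAAGATGGCGgcggtggtcgc
NDUFS6, YY1-type, chr5:1801405-1801434, plus strand: ccagcggcgcAAAATGGCGgcggcgatgac
UQCRC1, YY1-type, chr3:48609604-48609633, minus strand: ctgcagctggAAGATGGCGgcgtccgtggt

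A single motif could thus be carried by subunits of several complexes, and the window of SDHB held both an ETS-type and a YY1-type match. The matches shown lie between 128 bases before and 23 after the start in RefSeq, and the YY1-type matches of SDHB, NDUFS6 and UQCRC1 lie just downstream of it. A match is a description of the sequence and was not tested for binding.

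The libraries differed in depth. Reads on genes, in M (mega) reads, numbered 16.3 to 17.3 M in MOLM-13 DMSO, 5.83 to 19.2 M in MOLM-13 FP54, 20.7 to 22.3 M in NB4 DMSO and 10.6 to 13.1 M in NB4 FP54. FTO mRNA, which does not report on degradation of the protein, was at 0.938 to 1.09 RPKM with DMSO and 0.897 to 1.13 with FP54 in MOLM-13, and at 2.52 to 2.86 and 1.95 to 2.11 in NB4. The marker lists went both ways. In DMSO libraries, the MOLM-13 markers HOXA9, MEIS1 and FLT3 averaged 21.3, 6.36 and 74.0 RPKM in the MOLM-13 table and 0.234, 0.157 and 5.67 in the NB4 table, but HOXA10 averaged 7.30 and 13.2. Of the granule genes of promyelocytes, MPO averaged 16.1 RPKM in the MOLM-13 table and 2170.2 in the NB4 table, but AZU1 (174 and 9.96), PRTN3 (413 and 61.0) and CTSG (116 and 58.5) were lower in the NB4 table, and ELANE did not exceed 0.218 RPKM in any NB4 library. That the second table holds NB4 cells was therefore taken from its name alone.

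Levels of subunit mRNA spread widely within each complex. Over DMSO libraries, the mean RPKM of the tested members ranged from 1.27 (SDHA) to 295 (NDUFS5) in MOLM-13, with a median of 22.0, and from 1.01 (NDUFA7) to 669 (NDUFS5) in NB4, with a median of 27.4. NDUFS5, an accessory subunit on the intermembrane side of complex I, was thus the most abundant in both lines on this scale. The highest means of the other complexes in NB4 were those of SDHB (44.8), UQCRH (269), COX7C (188) and ATP5F1B (314). At the threshold of mean RPKM, SDHA in MOLM-13 (1.21 over its 6 libraries) and NDUFA11 in NB4 (1.00) lay just inside, and NDUFA13 in NB4 (0.678) and NDUFA9 in MOLM-13 (0.302) were the nearest below it.

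The symbols of 10 genes were tested in neither line. NDUFA9 was below the threshold in both. COX4I2, COX6A2 and COX7A1, the isoforms of lung, heart and muscle, were listed at 0 in all 12 libraries, and COX6B2, COX7B2 and COX8C, known from testis, did not exceed 0.231 RPKM in any. The rest were ATP5MGL, a relative of the g subunit gene ATP5MG, and the read-through genes NDUFC2-KCTD14 and ATP5MF-PTCD1. In every complex IV pair with a ubiquitous and a tissue-specific form, the ubiquitous form (COX4I1, COX6A1, COX6B1, COX7A2, COX7B, COX8A) was thus the one detected at the threshold.

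In NB4 cells, the mRNA of subunits of every complex was lower with FP54. Of 76 members tested, 49 were down-regulated at an adjusted p below 0.05, where 22% of all genes tested were down-regulated and 29.8% up-regulated. No member was up-regulated by this test (limma; 0 also at an unadjusted p below 0.05, and 0 by limma-voom on reads recovered from the RPKM, which called 46 of 75 lower). The fitted change was below 0 in 71 of the 76, against 44.2% of all genes. At an unadjusted p below 0.05, 55 members were lower, where 24.7% of all genes were lower and 33.3% higher. In 56 members all FP54 libraries lay below all DMSO libraries (26.2% of all genes), and in 1, ATP5MC2, all lay above (34.3%), so that 57 did not overlap where 60.5% of all genes did not. The median log2 fold change, on the log2(RPKM + 0.1) scale used throughout, was -0.39 over members and 0.07 over all genes. With the cutoff of the study (unadjusted p below 0.01 and an absolute log2 change of at least 0.5), 23 members were lower and 0 higher, where 10.7% of all genes were lower. An exact permutation test of 3 against 3 libraries cannot go below a two-sided p of 0.1 for a single gene, so single members rest on the limma fit across all genes. In bulk RNA, fewer cells of a type and less RNA per cell cannot be told apart.

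**Figure D1:**
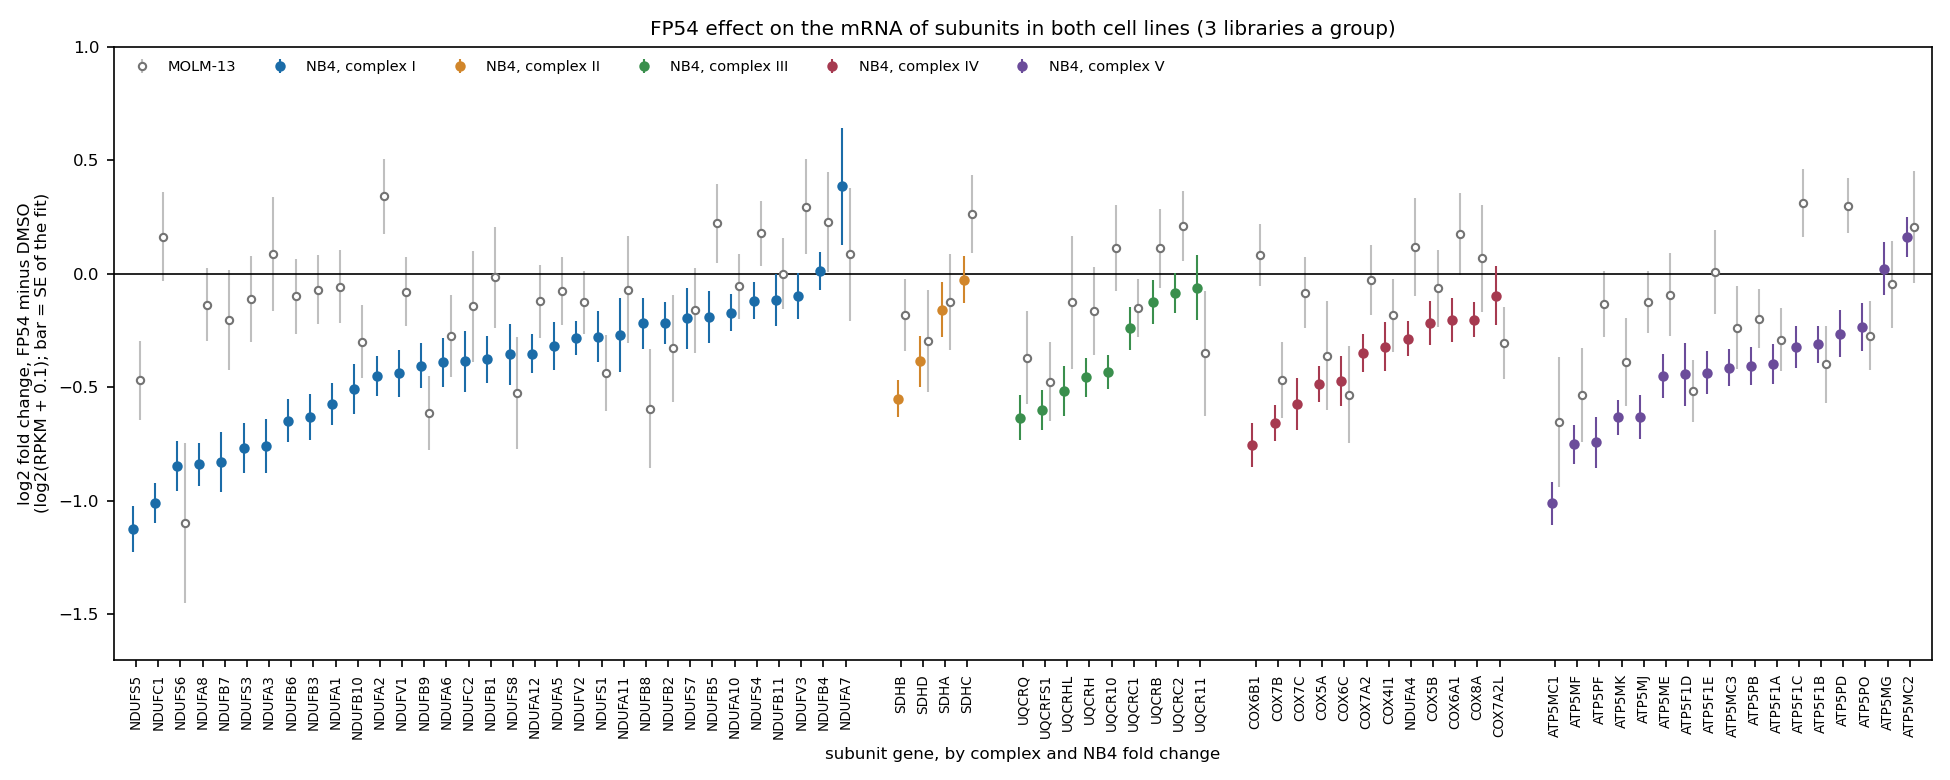
Log2 fold change (y axis, FP54 minus DMSO on the log2(RPKM + 0.1) scale) of the subunit genes tested in NB4, except 1 that is not drawn (filled points, coloured by complex) and the same gene in MOLM-13 (open points), with the SE of the fit as bars and 3 libraries a group. In NB4, 71 points lie below 0 and the range is from -1.12 for NDUFS5 to 0.39 for NDUFA7; the MOLM-13 points scatter more closely around 0 with wider bars.

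Each of the 5 complexes had members down-regulated in NB4. Complex I had 21 of 34 members lower and a median log2 fold change of -0.37, complex II 2 of 4 and -0.27, complex III 5 of 9 and -0.43, complex IV 8 of 12 and -0.34, and complex V 13 of 17 and -0.41. Differences between complexes were not tested, since subunits of a complex are not replicates. The summed RPKM of the members was 4205, 5013 and 4580 in the DMSO libraries and 3134, 3248 and 3081 in the FP54 libraries, so that the FP54 mean was 68.6% of the DMSO mean. By complex this share was 60.9% for complex I, 74.9% for complex II, 74.5% for complex III, 75.1% for complex IV and 74.7% for complex V. The lower share of complex I rested in part on its most abundant gene: without NDUFS5 it was 68.3%. In every complex, the median over members was lower in each FP54 library than in each DMSO library.

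**Figure D2:**
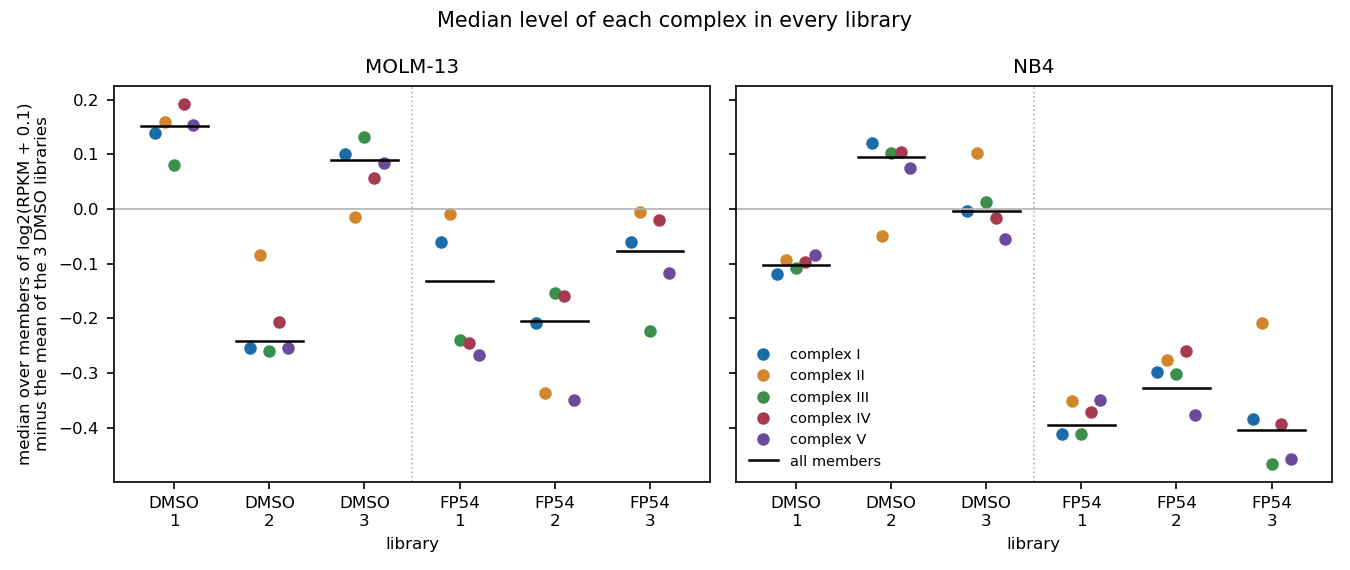
Median over the members of each complex (coloured points) and over all members (black lines) of log2(RPKM + 0.1) in each library (x axis) after subtraction of the gene's mean in the 3 DMSO libraries. In NB4 the 3 FP54 libraries have overall medians of -0.40, -0.33 and -0.40, below all DMSO libraries (-0.10 to 0.10). In MOLM-13, DMSO replicate 2 (-0.24) lies below the FP54 libraries (-0.21 to -0.08).

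Within complex I, which oxidizes NADH, the strongest decreases in NB4 were in accessory subunits. NDUFS5 (chr1:39026318-39034636) was at 590.01, 744 and 674 RPKM with DMSO and at 318, 311 and 288 with FP54. These groups were far apart, and the fitted log2 fold change was -1.12 ± 0.10 (SE; adjusted p = 1.0e-05). NDUFC1 (chr4:139266880-139302551), a small subunit of the membrane arm, was at 12.03, 12.1 and 13.2 RPKM with DMSO and 6.05, 6.26 and 6.06 with FP54. All FP54 libraries were thus close together and below every DMSO library, with a log2 fold change of -1.01 ± 0.09 (adjusted p = 9.3e-06). NDUFA8, an accessory subunit that faces the intermembrane space and carries the NRF1-type match shown above, was at 70.5, 86.0 and 72.4 RPKM with DMSO and 39.6, 43.9 and 43.96 with FP54 (log2 fold change -0.84 ± 0.10, adjusted p = 5.5e-05). NDUFB7, which lies on the same side of the membrane, was at 174, 265 and 195 RPKM with DMSO and 118, 118 and 114 with FP54, again without overlap (log2 fold change -0.83 ± 0.13). NDUFS6, a zinc-binding accessory subunit needed for the NADH-binding part, went from 162, 206 and 179.6 to 105, 109 and 89.8 RPKM (log2 fold change -0.85 ± 0.11).

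Core subunits of complex I were also measured in NB4. NDUFV1, which binds NADH and FMN, was lower (45.7, 59.8 and 49.1 RPKM with DMSO, 37.3, 39.3 and 36.8 with FP54; log2 fold change -0.44 ± 0.10, adjusted p = 0.0051). NDUFS3, a core subunit of the matrix arm, was also lower, at 13.2, 17.2 and 15.0 RPKM against 9.49, 8.41 and 8.56 (log2 fold change -0.77 ± 0.11). NDUFS1, the largest iron-sulfur subunit, missed the threshold (log2 fold change -0.28 ± 0.11, adjusted p = 0.060) although its FP54 libraries (8.18, 8.78 and 8.72 RPKM) lay below its DMSO libraries (10.6, 8.95 and 11.9). Of the 15 tested subunits of the NADH-binding and ubiquinone arm, 9 were lower with a median log2 fold change of -0.32, and of the 19 of the membrane arm 12 were lower with a median of -0.40. NDUFA7 had the largest fitted increase (0.39 ± 0.26, adjusted p = 0.23), at 0.696, 1.52 and 0.804 RPKM with DMSO and 1.36, 0.988 and 1.54 with FP54, with overlapping groups at a low level. NDUFA7 shares 32.5% of its exon bases with another gene on its strand, which the annotation leaves without a symbol.

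Complex II, succinate dehydrogenase, has only nuclear subunits and is also an enzyme of the tricarboxylic acid cycle. SDHB, its iron-sulfur subunit, was at 41.7, 45.8 and 47.0 RPKM with DMSO and 31.5, 30.1 and 30.1 with FP54 in NB4, which gave a log2 fold change of -0.55 ± 0.08 (adjusted p = 0.00029). SDHD, a membrane anchor, was at 14.7, 14.1 and 18.2 RPKM against 11.2, 11.8 and 12.8 (log2 fold change -0.38 ± 0.11, adjusted p = 0.015). SDHC, the other membrane anchor, was at 10.9, 9.97 and 12.02 against 11.1, 9.80 and 11.4 RPKM. The groups of SDHC overlapped throughout, and the 95% interval of its log2 fold change ran from -0.25 to 0.20. SDHA, the flavoprotein, was low on this scale (1.74, 1.98 and 1.89 against 1.58, 1.72 and 1.69 RPKM) and had a log2 fold change of -0.16 with an interval of -0.43 to 0.11. SDHA shares 21.7% of its exon bases with another gene on its strand, which the annotation leaves without a symbol.

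Complex III carries electrons from ubiquinol to cytochrome c. Its Rieske iron-sulfur subunit UQCRFS1 was at 18.1, 20.1 and 19.3 RPKM with DMSO and 11.8, 13.3 and 12.7 with FP54 in NB4 (log2 fold change -0.60 ± 0.09, adjusted p = 0.00030). UQCRQ, a small subunit beside cytochrome b, was at 60.7, 77.0 and 71.2 against 45.6, 46.7 and 41.8 RPKM (log2 fold change -0.63 ± 0.10). Both groups of libraries were separate for each gene. Other members were changed less. Of the core proteins, UQCRC1 had a log2 fold change of -0.24 ± 0.09 (adjusted p = 0.051) and UQCRC2 one of -0.08 ± 0.09 (adjusted p = 0.44). UQCRB (-0.12, adjusted p = 0.30) and UQCR11 (-0.06, adjusted p = 0.74), which are not core proteins, did not pass the threshold either. UQCRH, the hinge protein that helps cytochrome c to dock, was lower (261, 276 and 271 against 186, 218 and 188 RPKM; log2 fold change -0.46 ± 0.09), as was its near-identical copy UQCRHL (16.9, 19.7 and 18.1 against 11.9, 14.8 and 11.7 RPKM; log2 fold change -0.52 ± 0.11). How reads were divided between these copies is uncertain, since a read can match both.

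In complex IV, cytochrome c oxidase, the catalytic core is encoded in mitochondrial DNA and the nuclear subunits surround it. COX6B1 (chr19:35648323-35658782), which lies on the side where cytochrome c binds, was at 50.1, 59.1 and 46.6 RPKM with DMSO and 31.2, 29.6 and 31.1 with FP54 in NB4 (log2 fold change -0.75 ± 0.10, adjusted p = 0.00013). COX7B was at 38.8, 42.4 and 40.3 against 24.7, 26.2 and 26.0 RPKM (log2 fold change -0.66 ± 0.08). For both genes the FP54 libraries were close together and well below DMSO. COX5A (-0.49), COX7A2 (-0.35), COX4I1 (-0.32) and NDUFA4 (-0.29) were lower by smaller log2 fold changes. The call of COX4I1 held in 12 of 18 alternatives and was lost with quantile normalization (limma, adjusted p = 0.32). COX5B (-0.22, adjusted p = 0.086), COX6A1 (-0.20, adjusted p = 0.10), COX8A (-0.20, adjusted p = 0.051) and COX7A2L (-0.10, adjusted p = 0.56), of which the last is known for joining complexes III and IV, did not pass the threshold.

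NDUFA4L2, a paralogue of NDUFA4 known as a gene induced by hypoxia, went the other way in NB4 but was too low to be tested there. It was at 0.0173, 0.0167 and 0.0319 RPKM with DMSO, which are 1, 1 and 2 reads, and at 0.842, 0.552 and 0.546 RPKM with FP54, which are 25, 18 and 20 reads. Every FP54 library was above every DMSO library. The ratio of reads, adjusted for depth, was 28.7 (exact Clopper-Pearson 95% interval 10.7 to 108.5, which covers counting error only). With no filter on low values, its log2 fold change was 2.59 (adjusted p = 5.1e-05), and 2.52 (adjusted p = 0.0011) after the mean level of olfactory receptor genes was subtracted from each library. In MOLM-13, where it passed the filter, the same gene was down-regulated (below), a call that held in 8 of 17 alternatives. Among the other members too low to be tested, ATP5MGL, COX7B2 and ATP5MF-PTCD1 also had every FP54 library above every DMSO library in NB4. Of all genes tested in NB4, 34.3% had this order, and with no filter 36.8% of all genes were higher. COX7B2 rested on 0, 0 and 1 reads with DMSO and on 2, 1 and 2 with FP54. ATP5MF-PTCD1 shares 83.3% of its exon bases with PTCD1 on its strand. With no filter and the olfactory receptor level subtracted, COX7B2 and ATP5MF-PTCD1 missed the threshold of limma (adjusted p = 0.073 and 0.060).

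Complex V contains a catalytic F1 head, a stalk and a proton-driven ring of c subunits in the membrane. The ring subunit is encoded by ATP5MC1, ATP5MC2 and ATP5MC3, which give the same mature protein from precursors that differ in their import sequences. The log2 fold changes of these 3 genes in NB4 were unlike, and the differences between the genes were not tested. ATP5MC1 (chr17:48892765-48895871) was at 11.5, 12.6 and 11.3 RPKM with DMSO and 5.70, 5.59 and 6.11 with FP54 (log2 fold change -1.01 ± 0.09, adjusted p = 1.3e-05). ATP5MC3 (chr2:175176258-175181710) was at 30.5, 28.1 and 30.3 against 21.2, 22.8 and 22.7 RPKM (log2 fold change -0.41 ± 0.08, adjusted p = 0.0017). ATP5MC2 (chr12:53632726-53677408) was at 28.4, 28.4 and 24.6 against 31.7, 29.6 and 29.7 RPKM (log2 fold change 0.16 ± 0.09, adjusted p = 0.15). The first pair of genes thus had FP54 libraries below DMSO and the last had them above, without passing the threshold. Summed over the 3 genes, the level was 68.6 ± 2.20 RPKM (SD, n = 3) with DMSO and 58.3 ± 0.344 with FP54, or 85.1% of DMSO. The share of ATP5MC1 in this sum was 17.2% ± 0.958 with DMSO and 9.94% ± 0.448 with FP54, and that of ATP5MC2 was 39.5% ± 2.11 and 52.0% ± 1.87. In MOLM-13, the log2 fold changes of ATP5MC1, ATP5MC2 and ATP5MC3 had the same order (-0.65, 0.21 and -0.24), and none passed the threshold. There the share of ATP5MC1 was 13.4% ± 2.83 with DMSO and 8.59% ± 1.83 with FP54, and that of ATP5MC2 was 51.8% ± 3.34 and 61.1% ± 6.84.

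The F1 subunits of complex V were lower in NB4. ATP5F1A and ATP5F1B, which form the catalytic hexamer, had log2 fold changes of -0.40 ± 0.09 and -0.31 ± 0.08 in NB4 (adjusted p = 0.0034 and 0.0088). ATP5F1B was at 298, 309 and 336 RPKM with DMSO and 259, 257 and 243 with FP54. ATP5F1C, the rotor shaft, had a log2 fold change of -0.32, and ATP5F1D, at its foot, one of -0.44. Of 9 genes of the head and stalk, 7 were lower (median -0.40), and of 8 genes of the ring and the dimer subunits, 6 were lower (median -0.54). ATP5MF, the f subunit of the membrane part, was at 21.6, 22.3 and 19.7 against 12.2, 12.8 and 12.6 RPKM (log2 fold change -0.75 ± 0.09, adjusted p = 5.4e-05). ATP5MG, the g subunit, was at 5.03, 5.56 and 5.64 against 4.75, 6.10 and 5.72 RPKM, with a 95% interval of the log2 fold change of -0.23 to 0.28. ATP5PF (log2 fold change -0.74 ± 0.11) shares 34.4% of its exon bases with GABPA on the other strand and ATP5ME (-0.45 ± 0.10) 61.3% with MYL5, so that their values hold only if counting used strand, which is not stated.

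**Figure D3:**
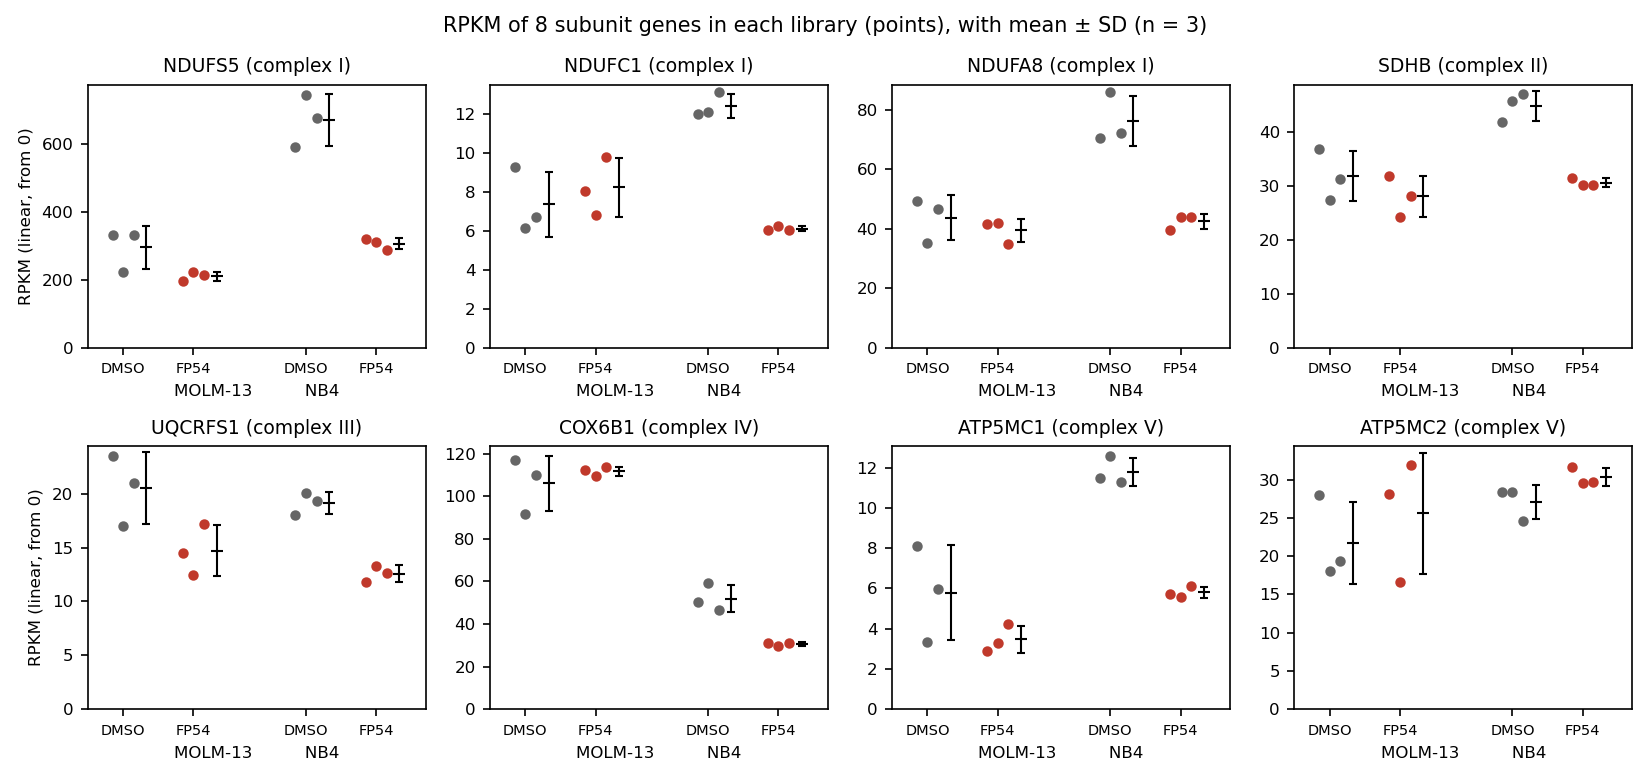
RPKM on a linear axis from 0 for 8 subunit genes in each library (points; grey DMSO, red FP54), with the mean and SD of 3 libraries beside them. In NB4 the groups of the first 7 genes are apart, with FP54 lower, and ATP5MC2 is the exception with FP54 at 29.6 to 31.7 RPKM above DMSO at 24.6 to 28.4. In MOLM-13 the groups overlap for every gene drawn except NDUFS5.

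Several properties of the NB4 libraries moved together with these decreases. Genes of high level fell more often: in the highest of 4 equal bins of mean RPKM, 39.3% were lower (median log2 fold change -0.15), and 34 of the 47 subunit genes in it, or 72.3%, were lower (median -0.44). Short genes fell more often too, with 33.5% lower in the shortest of 4 equal bins of exon length, where 37 of 50 subunit genes were lower. The mean RPKM of 416 olfactory receptor genes, which these cells should not express, was 0.0017 to 0.0037 in DMSO and 0.0496 to 0.0549 in FP54. After subtraction of this level from each library, 51 members were lower and 0 higher. The part of gene level and length in the result was not tested beyond these values. Markers of other cell types (11 genes, among them HBB, HBG1, CD3E, CD3D, CD79A, EPCAM, KRT8, COL1A1 and PECAM1) summed to 18.5 to 20.0 RPKM in DMSO and 27.7 to 30.6 in FP54. Of 5 tested, 3 were higher, where 29.8% of all genes were, and 43.7% in the lowest bin of mean RPKM. The largest parts of the sum were EPCAM (means of 8.15 and 9.7 RPKM), CD3D (6.35 and 10.3) and PECAM1 (2.11 and 5.23). These genes were detected in every DMSO library, so that the sum does not tell other cells from the leukemia cells. CD3E did not exceed 0.201 RPKM in any library, HBG1 was at 0 in all and HBB at 0 in DMSO. The granule genes MPO, AZU1, PRTN3 and CTSG, which mark promyelocytes, were all lower with FP54. The part of these cell markers in the result was not tested.

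**Figure D4:**
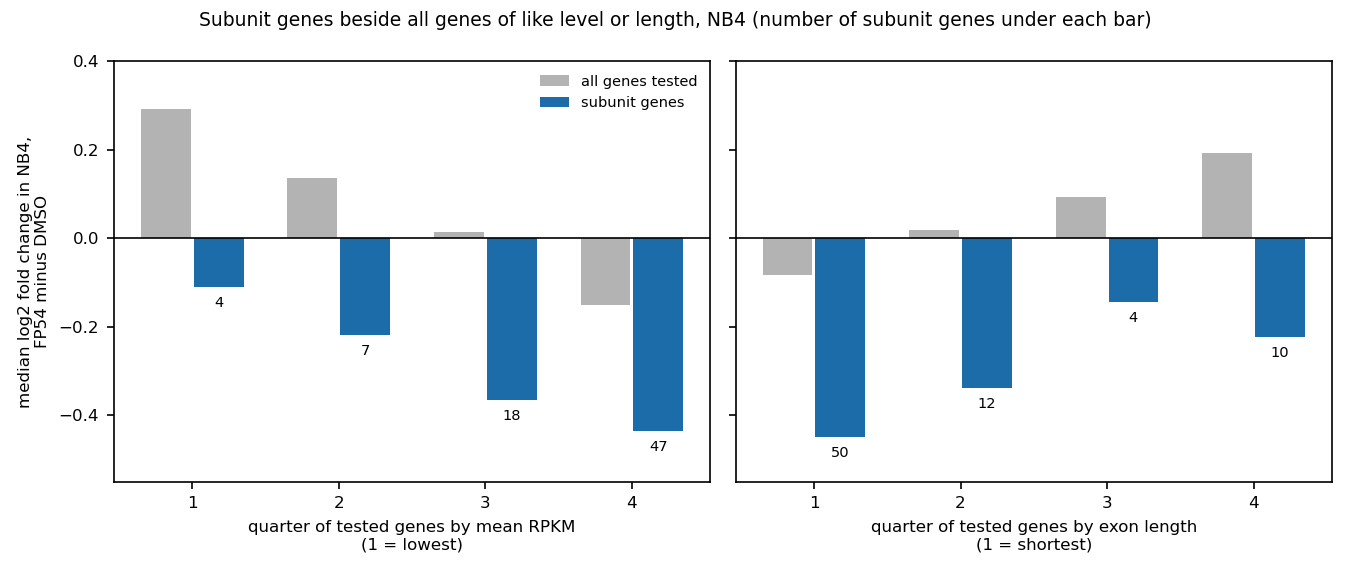
Median log2 fold change in NB4 (y axis, FP54 minus DMSO) of all genes tested (grey) and of the subunit genes (blue, with their number), in 4 equal bins of mean RPKM (left) and of exon length (right). The medians of all genes run from 0.29 in the lowest bin of RPKM to -0.15 in the highest, and the subunit medians lie below those of all genes in each bin of RPKM, from -0.11 to -0.44.

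In MOLM-13 cells, few subunits passed the test. Of 78 members, 3 were down-regulated (9.32% of all genes tested were) and 0 up-regulated (9.84%). By limma at an unadjusted p below 0.05, 14 were lower (17.4% of all genes) and 1, ATP5PD, higher (17.6%), so that the share lower was near that of all genes, and limma-voom on recovered reads called 3 lower and 0 higher. The cutoff of the study gave 3 lower (9.04% of all genes) and 0 higher (9.3%). The fitted change was below 0 in 56 of the 78 (49.7% of all genes) and above 0 in 22 (50.3%), with a median log2 fold change of -0.12 against 0.003 over all genes. In 9 members all FP54 libraries lay below all DMSO libraries (17% of all genes), and in 1 all lay above (20.2%), so that 10 did not overlap where 37.1% of all genes did not. By complex, 1 of 35 members of complex I was lower (median log2 fold change -0.10), 0 of 4 of complex II (-0.15), 0 of 9 of complex III (-0.15), 1 of 13 of complex IV (-0.08) and 1 of 17 of complex V (-0.20). At an unadjusted p below 0.05, 0 members of complex II and 1 of complex III were lower. The summed RPKM was 3782, 3049 and 3855 with DMSO and 3011, 3406 and 3137 with FP54, or 89.4% of DMSO.

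The members called in MOLM-13 belong to complexes I, IV and V. NDUFB9, a membrane-arm subunit of complex I, was at 24.1, 18.2 and 24.2 RPKM with DMSO and 12.5, 15.2 and 15.6 with FP54 (log2 fold change -0.61 ± 0.16, adjusted p = 0.028). ATP5F1D was at 48.7, 41.0 and 52.3 against 33.0, 32.9 and 32.7 RPKM (log2 fold change -0.52 ± 0.14, adjusted p = 0.027). NDUFA4L2 was at 2.33, 1.62 and 2.20 against 1.04, 1.29 and 1.33 RPKM (log2 fold change -0.69 ± 0.21, adjusted p = 0.046). In all of these the groups did not overlap. NDUFS6 had the largest fitted decrease but a wide spread: it was at 52.0, 19.4 and 51.0 RPKM with DMSO and 12.1, 20.7 and 20.7 with FP54, so that DMSO replicate 2 lay among the FP54 libraries (log2 fold change -1.10 ± 0.35, adjusted p = 0.054). ATP5PD, a stalk subunit of complex V, was at 42.2, 39.8 and 43.1 against 51.1, 52.7 and 50.5 RPKM, higher in every FP54 library, and missed the threshold (log2 fold change 0.30 ± 0.12, adjusted p = 0.11).

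The MOLM-13 count depended on which library was left out. DMSO replicate 2 held the lowest of the 3 DMSO values in 65 of the 78 members. Its median over members lay 0.24 below the DMSO mean on the log2 scale, and below the medians of the FP54 libraries (-0.21 to -0.08). This library was singled out from the values of these same members. Without it 16 members were lower, and the share of all genes lower was 13.5%. Without DMSO replicate 1, DMSO replicate 3 or FP54 replicate 1 the count was 0, where 3.69, 2.34 and 2.19% of all genes were lower. Without FP54 replicate 3 it was 1, where 9.66% of all genes were lower. The median SE of a member was 0.17 in MOLM-13 and 0.10 in NB4. FP54 replicate 2 was the shallowest library, with 5.83 M reads. Without it 3 members were lower (9.37% of all genes) and 1, ATP5F1C, higher (12.4%). The markers of other cell types summed to 27.9 to 30.6 RPKM in DMSO and 43.1 to 46.1 in FP54. Most of this sum was PECAM1, the 1 that was tested, which averaged 27.1 and 41.8 RPKM and was higher. It was at 25.4 to 28.6 RPKM in the DMSO libraries too, so that it does not tell other cells from the leukemia cells here. The other marker genes named above did not exceed 1.54 RPKM in any library, with HBB and HBG1 at 0 throughout, so that the sum followed PECAM1. The part of these markers in the result was not tested.

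The difference between the lines was tested in 1 model of all 12 libraries over the 8849 genes tested in both. Of 76 members, 7 had an FP54 effect that was lower in NB4 than in MOLM-13 (3.75% of all genes) and 0 one that was higher (10.5%). At an unadjusted p below 0.05 these counts were 17 (9.41% of all genes) and 0 (18.8%), and limma-voom gave 9 and 0. The fitted difference was below 0 in 62 of the 76, with a median of -0.24 against 0.08 over all genes. The effect of NDUFC1 differed most among those past the threshold (-1.18 ± 0.22, adjusted p = 0.0027): its MOLM-13 values, 9.29, 6.15 and 6.70 RPKM with DMSO and 8.08, 6.82 and 9.83 with FP54, overlapped, while those of NB4 were far apart. COX6B1 (-0.84 ± 0.17, adjusted p = 0.0037) was at 117, 91.7 and 109.9 RPKM with DMSO and 112, 109.5 and 114 with FP54 in MOLM-13. NDUFA2 (-0.79 ± 0.19, adjusted p = 0.011), an accessory subunit of the NADH-binding part, was lower in NB4 (27.7, 32.4 and 29.97 against 21.8, 22.8 and 21.2 RPKM) and had a positive fit in MOLM-13 (22.2, 16.4 and 20.5 against 28.5, 21.6 and 24.6). NDUFA8 (-0.70), ATP5F1C (-0.64), ATP5PF (-0.61) and ATP5PD (-0.56) were the others. Of the members down-regulated in one line, NDUFB9 and ATP5F1D were called in both, and 53 of 76 were below 0 in both. The tables were scaled separately, so that levels of subunits are not compared between the lines.

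**Figure D5:**
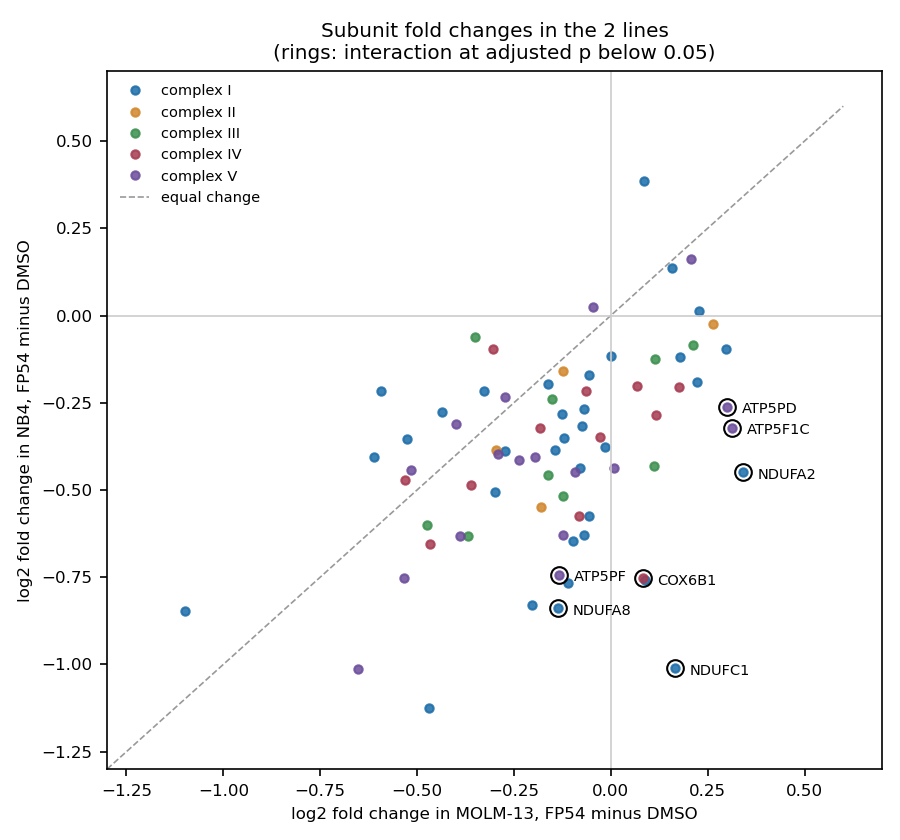
Log2 fold change with FP54 in MOLM-13 (x axis) and NB4 (y axis) of the 76 subunit genes tested in both, coloured by complex; rings mark the 7 with an interaction at an adjusted p below 0.05 and the dashed line equal change. Most points (62 of 76) lie below the line, NDUFC1 farthest, with 0.16 in MOLM-13 and -1.01 in NB4.

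Counts of lower subunits with and without promoter matches are given for NB4, and the difference was not tested. Of 15 tested members with the NRF1-type motif, 9 were lower, and of 47 without it, 30 were. For the ETS-type motif the counts were 13 of 20 and 26 of 42, and for the YY1-type motif 9 of 16 and 30 of 46. The median log2 fold change was -0.35 with and -0.39 without the NRF1-type motif, -0.42 and -0.35 for the ETS-type, and -0.32 and -0.39 for the YY1-type.

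Other genes of the pathway were taken from lists written with earlier results of these data known. Beside their counts, 22% of all genes tested were lower and 29.8% higher in NB4, and 9.32 and 9.84% in MOLM-13. The 13 subunits encoded in mitochondrial DNA, read here in poly(A) RNA, were lower in 10 and higher in 0 in NB4 (median log2 fold change -0.62). MT-ATP6, which forms the proton path of complex V, was at 3539, 3806 and 3494 RPKM with DMSO and 1810.4, 2116 and 2299 with FP54 (log2 fold change -0.81, adjusted p = 0.00017), and MT-CO2, which takes electrons from cytochrome c, had a log2 fold change of -0.71 (adjusted p = 0.00016). These 13 genes took 12.02 to 13.1% of all RPKM in NB4 DMSO and 8.76 to 9.77% in FP54, and the 88 nuclear subunit genes took 1.79 to 1.99% and 1.37 to 1.43%. In MOLM-13, 0 of the 13 were lower and MT-ND6 was higher (log2 fold change 0.85, adjusted p = 0.018), although 12 of 13 fits were below 0. At an unadjusted p below 0.05, 3 of these were lower, where 17.4% of all genes were.

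Assembly factors, which build the complexes without being part of them, were lower in 23 and higher in 4 of 52 tested in NB4 (median log2 fold change -0.20). Of all genes in NB4, 22% were lower and 29.8% higher. In MOLM-13, 9 of 50 were lower and 1 higher (median -0.10), where 9.32 and 9.84% of all genes were. In NB4 the leading decreases were those of NDUFAF2, a complex I factor (7.85, 10.1 and 10.4 against 4.12, 5.197 and 4.75 RPKM, log2 fold change -0.99), and COA6, a copper factor of complex IV (-0.88). COX19, another copper factor of complex IV (0.67), and ATPAF1, a complex V factor (0.36), were higher. In MOLM-13, NDUFAF4 had a larger decrease than any subunit tested there (4.63, 2.02 and 4.796 against 0.532, 0.808 and 1.37 RPKM, log2 fold change -1.95, adjusted p = 0.0086), followed by COA7 (-1.65), and SURF1, a complex IV factor, was higher (0.71).

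Of the nuclear regulators, 5 of 13 were lower in NB4 (38.5%, against 22% of all genes) and 2 higher (15.4%, against 29.8%). In MOLM-13, 3 of 12 were lower (25%, against 9.32%) and 0 higher (9.84% of all genes). By limma at an unadjusted p below 0.05, 5 were lower and 1 higher in MOLM-13 (17.4 and 17.6% of all genes). TFB2M, a transcription factor of mitochondrial DNA, was lower in both lines, with log2 fold changes of -0.98 in NB4 (24.8, 22.8 and 26.4 against 12.9, 11.2 and 13.1 RPKM) and -0.83 in MOLM-13. POLRMT, the mitochondrial RNA polymerase, was lower in NB4 (-0.62), and ESRRA, a nuclear receptor of oxidative metabolism genes, in MOLM-13 (-0.86). GABPB2, a subunit of the ETS-type factor GABP, and SP1 were higher in NB4 (0.91 and 0.43).

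Subunits and carriers that the symbol rule does not reach were lower in 3 of 5 in NB4, where 22% of all genes were. NDUFAB1, the acyl carrier protein of complex I, was at 77.9, 97.6 and 85.1 RPKM with DMSO and 53.0, 48.7 and 45.5 with FP54 (log2 fold change -0.82). CYCS, which encodes cytochrome c, was lower in both lines, by -1.69 in MOLM-13 (33.3, 21.7 and 33.4 against 5.04, 10.7 and 12.96 RPKM, adjusted p = 0.0078) and -0.42 in NB4. Enzymes of the tricarboxylic acid cycle were lower in 6 and higher in 0 of 13 in NB4 (22 and 29.8% of all genes), led by IDH3B (-0.67) and FH (-0.57). By limma at an unadjusted p below 0.05 the counts were 6 and 0 as well (24.7 and 33.3% of all genes). In MOLM-13, 1 of 13 was lower, IDH3A (-0.94), where 9.32% of all genes were. Of 5 other enzymes that pass electrons to ubiquinone, 2 were lower in NB4 (22% of all genes), DHODH of pyrimidine synthesis (-0.55) and ETFA of fatty acid oxidation (-0.44). In MOLM-13, 0 of 5 were lower (9.32% of all genes) and 0 higher (9.84%). By limma at an unadjusted p below 0.05, 1 was lower (17.4%) and 1 higher (17.6%). The fitted change there was above 0 in 4 of the 5, with a median log2 fold change of 0.28.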

How the data were processed

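The RNA sequencing samples, 12 of 22, were analysed; the other 10, from m6A-seq and polysome profiling, were not used here. The deposited RPKM values were made by the authors, who selected poly(A) RNA, prepared stranded libraries, trimmed reads with Cutadapt 4.8, removed duplicates with Clumpify, aligned to hg38 with STAR 2.7.11b and counted reads on protein-coding genes of GENCODE 42 with featureCounts 2.0.3. RPKM divides by all reads on genes, so that a change of a few abundant genes moves all others, and whether counting used strand is not stated.

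From there, log2(RPKM + 0.1) of genes that averaged 1 RPKM or more was fitted with limma 3.58.1 (R 4.3.3, eBayes with an intensity trend), with Benjamini-Hochberg adjustment over all genes tested and a call at 0.05. The effect in NB4 minus MOLM-13 was an interaction term of 1 model. RPKM times GENCODE 44 exon length gave whole reads (within 0.02 reads) for 98.1 to 98.9% of low values, which gave the depths (5.83 to 22.3 M reads) and a limma-voom alternative added after the data were seen, as was subtraction of the olfactory receptor level. Steps were tested on simulated data. Members and lists were chosen with earlier results of these data known.

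By rule, the text names in each complex up to 2 members called with the largest change in each direction and line, all SDH genes, core subunits, subunits with paralogues, the 5 largest interactions called, members nearest the RPKM threshold and up to 2 genes per direction of each other list. Other members (NDUFA7, NDUFB7, NDUFS3, NDUFS6, UQCRB, UQCRC2, UQCR11, ATP5ME, ATP5PD and ATP5PF) were named after their values were seen. Alternatives were the pseudocount, the filter, scaling, the variance model, a replicate block, the cutoff of the study and leaving out each library. Gene positions are those of GENCODE 44 on hg38. Python 3.11.15 with pandas 2.3.3, numpy 2.4.6 and matplotlib 3.10.9 was used for tables and figures. Values of 1 subunit gene and of 2 marker genes are included in counts and sums but are not reported here.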

Additional observations from a re-analysis of the deposited data

Results flagged for a closer look

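The FP54 effect differed between the lines, by the interaction term of limma, in 7 members, all with a lower value in NB4. The difference of log2 fold changes, NB4 minus MOLM-13, was -1.18 for NDUFC1, -0.84 for COX6B1, -0.79 for NDUFA2, -0.70 for NDUFA8, -0.64 for ATP5F1C, -0.61 for ATP5PF and -0.56 for ATP5PD. COX6B1 was past the threshold in all 15 alternatives run for the interaction, NDUFC1 in 14, NDUFA2 in 13, ATP5F1C in 12, NDUFA8 and ATP5PD in 11 and ATP5PF in 9. Without replicate 3 of every group 1 member was called, and without replicate 1 it was 2.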

How the results depend on the processing

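With replicate left out in turn, the counts of members lower ranged from 0 to 16 in MOLM-13 and from 42 to 53 in NB4. In these fits the share of all genes lower ranged from 2.19 to 13.5% in MOLM-13 and from 17.8 to 26.0% in NB4. The counts of members higher ranged from 0 to 1 and from 0 to 2, and those lower in NB4 than in MOLM-13 from 1 to 6. The complex III median of MOLM-13 ranged from -0.26 to 0.0030. With no filter on low values, 1 member was lower and 1 higher in MOLM-13, 4 were higher in NB4 (NDUFA4L2, ATP5MGL, COX7B2 and ATP5MF-PTCD1, none above 1.30 RPKM in any library, where 36.8% of all genes were higher) and 3 had a higher effect in NB4; with the olfactory receptor level also subtracted these counts were 0, 0, 2 (NDUFA4L2 and ATP5MGL) and 3. The cutoff of the study gave 23 lower in NB4. Quantile normalization gave 1 higher in NB4 (ATP5MC2), 13 with a lower effect in NB4, and NB4 medians of -0.40 for complex II, -0.23 for complex IV and -0.33 for complex V; it moved the median of all genes in NB4 from 0.07 to -0.03 and the share of genes lower and higher from 22.0 and 29.8% to 28.1 and 23.7%, with 50 members lower. Median-ratio scaling gave 56 lower. The complex II median of NB4 was -0.38 at a mean RPKM of at least 5 and -0.15 with limma-voom. A replicate block gave 2 members lower in MOLM-13, 51 in NB4 and 3 in the interaction; same-numbered libraries correlated by -0.26, -0.13 and -0.06 in MOLM-13 and -0.14, 0.07 and 0.12 in NB4, so that libraries were not treated as paired by number. No MOLM-13 library correlated best with its own number: the highest correlations were between DMSO 1 and FP54 3 (0.59), DMSO 2 and FP54 1 (0.49) and DMSO 3 and FP54 2 (0.47), a match seen in the data that no label gives.

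Of 290 alternatives for counts and medians, 264 stayed near the value reported and 26 moved; of 1462 for single members, 1344 stayed on their side, 59 lost and 29 gained the threshold and 30 changed sign, of which none was called in the values reported. Of 49 members lower in NB4, 37 were called in every alternative, and of 3 in MOLM-13, 0. COX7A2 in MOLM-13 was at 0.040, ATP5MG in NB4 at -0.13 and COX5B in NB4 at 0.0077 with quantile normalization, and ATP5MG at -0.041 with median-ratio scaling. With replicate left out, log2 fold changes ranged in MOLM-13 from -0.019 to 0.16 for COX6B1, -0.13 to 0.10 for COX7A2, -0.18 to 0.25 for COX8A, -0.054 to 0.30 for NDUFA4, -0.36 to 0.0030 for UQCRH, -0.51 to 0.10 for UQCRHL, -0.23 to 0.080 for ATP5MG, -0.22 to 0.0023 for NDUFV1, -0.20 to 0.041 for COX5B and -0.29 to 0.068 for NDUFA11, and in NB4 from -0.091 to 0.043 for SDHC, -0.23 to 0.029 for COX7A2L and -0.051 to 0.13 for ATP5MG. The cause of these changes was not tested. Depth limits low members: at 1 to 2 reads in a library, as for NDUFA4L2 in NB4 DMSO, a level cannot be told from 0.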
